A study of Homo sapiens with 8 samples.

Results

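To assess how inhibition of the immunoproteasome bears on the supply of ubiquitin and on the genes that activate the transcription factor NFE2L1, the counts of 8 genes were described in MOLM-13 cells, an established human acute myeloid leukemia line with a rearranged KMT2A gene. The genes were chosen by name, as the rows of the count table for UBB and RPS27A (ubiquitin), UBA1 (ubiquitin activation), USP14 (a deubiquitinase of the proteasome) and NFE2L1, DDI2, NGLY1 and VCP (the NFE2L1 axis). All 8 were found among the 38551 genes of the table, and all 8 passed the filter on low counts. Cells of 4 libraries had received 100 nM PR-957 (ONX-0914), an inhibitor of the immunoproteasome subunit PSMB8, and cells of the other 4 the diluent DMSO, both for 72 h. All libraries came from polyA RNA of this single line, with no transgene or deletion named by the labels. Nothing in the sources used here says whether replicates were separate cultures, so p-values measure only the spread between these libraries.

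Ubiquitin is a small protein that is attached to other proteins and, as a chain, marks them for the proteasome. It is made as precursors: UBB encodes head-to-tail repeats of ubiquitin, while RPS27A encodes a single ubiquitin fused to a ribosomal protein. UBA1 is the main E1 enzyme, which activates ubiquitin for transfer, and deubiquitinases such as USP14 return it to the pool before the substrate is degraded. NFE2L1 is made at the endoplasmic reticulum (ER) and is normally pulled out of the membrane by the ATPase VCP and degraded. When the proteasome is inhibited, NFE2L1 that has been extracted by VCP, stripped of its sugars by the deglycosylase NGLY1 and cut by the protease DDI2 enters the nucleus. There it raises transcription of proteasome genes, which is known as the bounce-back response, and most of this control acts on the protein rather than on the mRNA.

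The first 60 coding bases of UBB and RPS27A are shown because they spell the same protein start with different bases. Capitals mark bases that differ from UBB. The sequences were read from the hg38 genome along the GENCODE v44 coding exons, at chr17:16381908-16381967 on the plus strand for UBB, while the RPS27A stretch spans an intron within chr2:55232825-55233374 on the plus strand.
UBB: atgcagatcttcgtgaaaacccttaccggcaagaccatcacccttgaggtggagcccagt
RPS27A: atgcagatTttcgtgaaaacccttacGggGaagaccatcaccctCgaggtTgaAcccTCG
RPS27A differed from UBB at 9 of the 60 bases. The coding sequence held 3 ubiquitin units of 76 residues in UBB and 1 in RPS27A, and every unit was identical in protein. At the base level, the closest units of the pair shared 83.3% of bases, and units within UBB shared between 94.7% and 96.5%. Of the stretches of 75 exonic bases, 12.7% of those in UBB and 5.06% of those in RPS27A occurred more than once in the genome. Such stretches also made up 4.15% in NFE2L1 and 1.46% in UBA1. Since reads that map to several places were not counted, the level of UBB is uncertain. To a lesser extent this holds for RPS27A, NFE2L1 and UBA1. The paper's reads were paired and longer than these stretches, and the share of reads lost was not measured.

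The promoters of VCP and USP14 are shown because both genes were higher after PR-957 and both hold the letters of the antioxidant response element, TGACNNNGC, to which NFE2L1 and its relatives bind as dimers with small MAF proteins. Capitals mark the match. The stretches are 120 bases long and lie upstream of the gene from RefSeq (GRCh38.p14). Relative to the start site, the VCP stretch runs from -229 to -110, placed to take in the match, and the USP14 stretch from -120 to -1. They lie at chr9:35072735-35072854 on the minus strand for VCP and chr18:158437-158556 on the plus strand for USP14, where the match reads on the opposite strand.
VCP: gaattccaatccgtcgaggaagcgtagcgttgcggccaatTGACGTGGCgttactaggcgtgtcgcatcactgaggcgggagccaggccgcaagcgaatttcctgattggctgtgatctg
USP14: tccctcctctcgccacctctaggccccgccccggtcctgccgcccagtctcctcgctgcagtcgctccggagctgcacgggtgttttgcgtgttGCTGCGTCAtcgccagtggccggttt
Searched on both strands from 250 bases before to 50 bases after each start site, the letters occurred in promoters of 3 of the 8 genes (UBB, USP14 and VCP), against 16.1% of the 27305 genes in the promoter table and 9 of 28 proteasome subunit genes. The first base of the match lay 189 bases before the start site in VCP and 26 before it in USP14. Of these 3 genes, UBB was not called, and UBA1, which had the largest rise of the 8, held no match. Among related genes described below, the letters occurred on both sides. OGT, MAFF, SEL1L and UCHL5, which were lower, held a match, as did ADRM1, UBQLN2, YOD1 and PSMD1, which were higher. Whether a match went with the direction of change was not tested. The letters of a heat shock element, GAANNTTC, which do not overlap the former, occurred in 0 of 8 promoters against 8.21% of all genes. A match describes letters in this window and not a bound site.

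Libraries held between 16675036 and 23111223 counts. Values are given as CPM, that is, counts as shares of a library scaled by TMM (trimmed mean of M-values), and a gene was called when its adjusted p in edgeR's quasi-likelihood test was under 0.05. All 9 myeloid markers were above 1 CPM in every library, with summed levels of 1505 to 1545 in DMSO and 2345 to 2673 CPM in PR-957. The sum does not describe each marker: over the 8 libraries LYZ ran from 135 to 985 CPM and FLT3 from 162 to 344 CPM. The paper reports FLT3, MEIS1 and genes of the HOXA cluster among those lower after PR-957. Of 10 markers of other lineages 8 stayed under 1 CPM throughout, and CD3E and PPBP were at 0. The sum over these 10 (42.3 to 64.4 in DMSO and 84.5 to 90.8 CPM in PR-957) came almost entirely from PECAM1, which myeloid cells also express. All marker levels here used plain library totals, without TMM scaling. The share of counts from mitochondrial genes was 1.94% to 2.75% in DMSO libraries and 4.15% to 5.24% in PR-957 libraries, and its part in the results below was not tested. Between the groups, 46.6% of 13179 genes tested were called, 3045 higher and 3098 lower, or 4066 higher and 2353 lower when libraries were scaled by their totals alone. CPM are shares of a library, so fewer transcripts per cell and a change in total RNA cannot be told apart.

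Of the 8 genes, 5 were called, 3 higher (UBA1, VCP and USP14) and 2 lower (NFE2L1 and RPS27A), while UBB, DDI2 and NGLY1 were not. Against the background of 46.6%, 23.1% called higher and 23.5% called lower, 5 of 8 is not a share that sets these genes apart. The counts over related gene lists given below are to be read against the same background. The groups did not overlap for 6 of the 8, all but UBB and DDI2, against 42.5% of all genes. The median log2 fold change of the 8 was 0.05, and that of all genes was 0.0030.

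**Figure D1:**
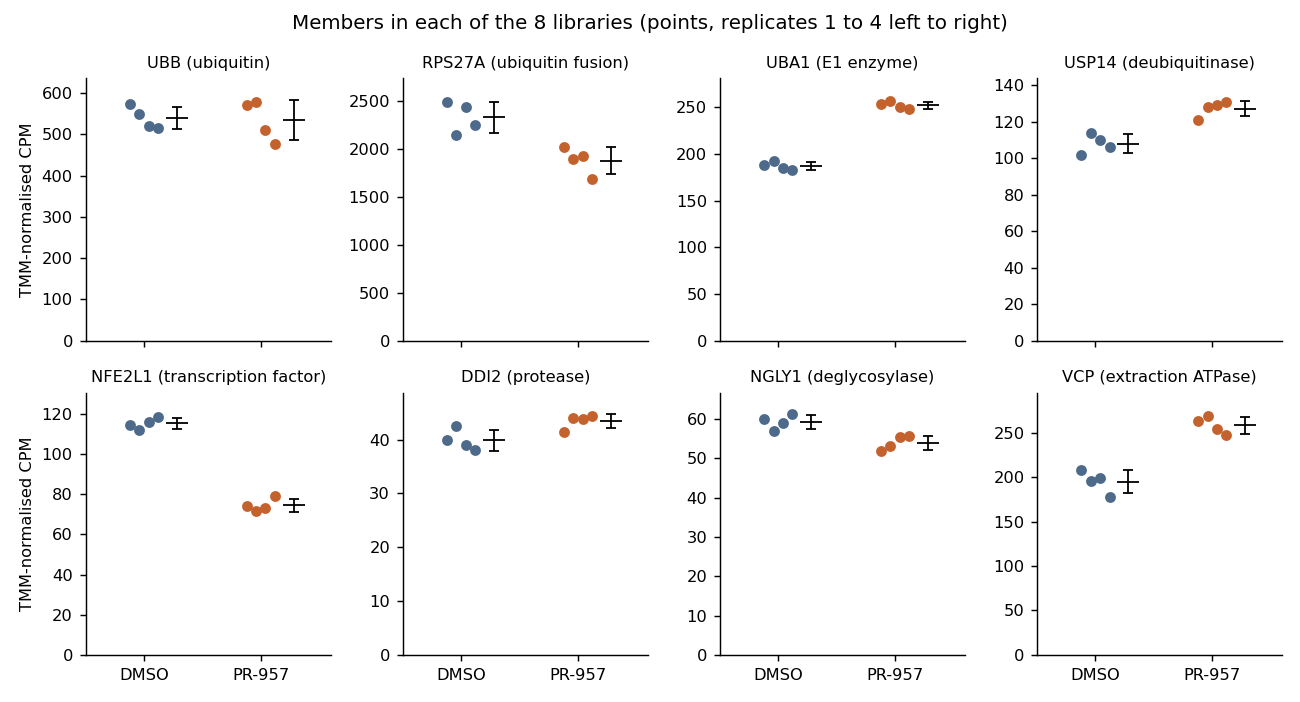
TMM-normalised CPM (vertical axes, from 0) of the 8 genes in 4 DMSO and 4 PR-957 libraries, with each library as a point and the group mean ± SD as a black bar. UBA1 (187 against 252 CPM), VCP (195 against 259 CPM) and NFE2L1 (115 against 74.5 CPM) are separated by far more than the spread within groups, whereas the UBB groups lie at the same level (539 against 534 CPM).

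Neither of the ubiquitin genes UBB and RPS27A rose after PR-957. UBB (chr17:16380793-16382745, plus strand, hg38) was measured at 572, 550, 521 and 515 CPM in DMSO replicates 1 to 4 and at 570, 579, 509 and 477 CPM in PR-957 replicates 1 to 4. The groups overlapped throughout, and replicates 1 and 2 were higher than replicates 3 and 4 in both. The log2 fold change was -0.02 ± 0.06 (SE), with a 95% interval of -0.15 to 0.12 and an edgeR adjusted p of 0.863. Taken alone, replicates 1 and 2 gave a log2 fold change of 0.03 and replicates 3 and 4 a value of -0.08.

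RPS27A (chr2:55231903-55235853, plus strand) fell by 19.3%. It stood at 2486, 2141, 2440 and 2245 CPM in DMSO and at 2015, 1889, 1920 and 1687 CPM in PR-957. All PR-957 libraries lay below all DMSO libraries, with the highest PR-957 library close to the lowest DMSO library. The log2 fold change was -0.31 ± 0.07 (SE, edgeR adjusted p = 0.00075). RPS27A also encodes a protein of the small ribosomal subunit, and the ribosomal protein genes moved with it: of 78 tested genes with a cytosolic ribosomal protein symbol other than RPS27A, a list assembled after the values were seen, 68 were lower and 6 higher, with a median log2 fold change of -0.41. Their part in the fall of RPS27A was not tested. Of all counts, these ribosomal protein genes took 17.8% to 19.1% in DMSO libraries and 13.7% to 15.5% in PR-957 libraries, RPS27A included. Of the exonic bases of RPS27A, 19.7% lie opposite exons of MTIF2. Counting used the strand, but the sources used here do not state whether the kit marks it. The same limit holds for smaller overlaps in USP14 (5.67%, THOC1), NGLY1 (4.98%, OXSM) and UCHL5 (6%, RO60).

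To set both genes side by side, CPM were divided by the length of the counted gene model. UBB stood at 343 ± 17.0 CPM per kb (SD, n = 4) in DMSO and at 339 ± 31.1 CPM per kb in PR-957, and RPS27A at 1696 ± 118 and 1368 ± 101 CPM per kb. Multiplied by the 3 ubiquitin units of UBB, its level became 1029 ± 51.0 and 1018 ± 93.4, against the values of RPS27A, whose transcript carries 1 unit. The transcript of RPS27A was thus the more abundant in both groups, also per ubiquitin unit.

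Upstream of the conjugation cascade, UBA1 (chrX:47190847-47215128, plus strand) rose by 35.0%. Its values were tight, at 188, 192, 185 and 183 in DMSO and 254, 256, 250 and 248 CPM in PR-957. The groups were separated by many times their SD of 4.01 and 3.70 CPM. The log2 fold change was 0.43 ± 0.05 (SE, edgeR adjusted p = 7.7e-07), with 0.43 within replicates 1 and 2 and 0.44 within replicates 3 and 4. UBA6, the other E1 that can activate ubiquitin, was measured at 55.3 ± 3.73 CPM (SD, n = 4) in DMSO and 49.9 ± 2.39 CPM in PR-957 and was not called (log2 fold change -0.15 ± 0.06, edgeR adjusted p = 0.0615), although it was called with a term for replicates 1 and 2 against 3 and 4 (adjusted p = 0.0479). Per kb, UBA1 stood at 22.2 CPM in DMSO against 5.79 CPM for UBA6.

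Of the 9 other E1 enzymes and E1 subunits for ubiquitin and related modifiers, 3 were higher, 2 lower and 4 not called, with a median log2 fold change of -0.05. The 3 that rose were NAE1 and UBA3, which together activate NEDD8, and SAE1, which activates SUMO. Their log2 fold changes were 0.25, 0.16 and 0.30. UBA2, the partner of SAE1, was lower at -0.21, so the subunits of this pair moved in opposite directions. UBA7, which activates the interferon-induced modifier ISG15, fell from 45.8 ± 2.71 to 36.6 ± 2.98 CPM (log2 fold change -0.32 ± 0.07, edgeR adjusted p = 0.00091).

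Of the 3 deubiquitinases of the proteasome, 1 was higher, 1 lower and 1 not called. USP14 (chr18:158557-214629, plus strand), which trims ubiquitin chains at the base of the regulatory particle, was measured at 102, 114, 110 and 106 CPM in DMSO and at 121, 128, 129 and 131 CPM in PR-957. All PR-957 libraries lay above all DMSO libraries, and the log2 fold change was 0.24 ± 0.05 (SE, edgeR adjusted p = 0.0013), a rise of 18.0%. UCHL5, which binds the proteasome through the ubiquitin receptor ADRM1, fell from 152 ± 8.49 to 109 ± 0.288 CPM (SD, n = 4), and its log2 fold change was -0.48 ± 0.05 (edgeR adjusted p = 6.1e-07). PSMD14, the metalloprotease of the lid that removes whole chains, stood at 114 ± 7.46 and 111 ± 5.28 CPM (log2 fold change -0.04, 95% interval -0.17 to 0.08, edgeR adjusted p = 0.563).

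Of the 7 deubiquitinases listed besides USP14, 2 were higher, 1 lower and 4 not called, with a median log2 fold change of 0.02. USP5, which takes apart free ubiquitin chains, rose from 74.0 ± 4.68 to 83.7 ± 4.65 CPM (log2 fold change 0.18 ± 0.06, edgeR adjusted p = 0.0207). This call was lost without DMSO replicate 4 (adjusted p = 0.0534) and without PR-957 replicate 2 (adjusted p = 0.0852), and it held neither within replicates 1 and 2 (adjusted p = 0.0973) nor within replicates 3 and 4 (adjusted p = 0.0616). OTULIN, which cleaves linear chains, rose as well (log2 fold change 0.18), while UCHL3, USP7 and USP9X were not called (log2 fold changes 0.04, 0.02 and -0.15).

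Receptors and shuttle factors that carry ubiquitylated proteins to the proteasome were mixed. Apart from DDI2, 3 of the 7 tested were higher, 2 lower and 2 not called, and the median log2 fold change was 0.08. ADRM1 rose from 71.7 ± 5.69 to 93.7 ± 7.76 CPM (log2 fold change 0.39 ± 0.07, edgeR adjusted p = 0.00013). UBQLN2, a shuttle factor, rose from 26.3 ± 0.447 to 32.3 ± 1.81 CPM (log2 fold change 0.30 ± 0.07, edgeR adjusted p = 0.0016), whereas its relative UBQLN1 fell (log2 fold change -0.20). The counts of SQSTM1 (1 to 10 per library) and DDI1 (0) were too low for a test, and SQSTM1 carries a copy of its gene model on an additional contig, so that its low count says nothing of its expression.

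The mRNA of NFE2L1 itself fell by 35.4%. NFE2L1 (chr17:48048359-48061545, plus strand) was measured at 115, 112, 116 and 119 CPM in DMSO and at 74.2, 71.8, 72.9 and 78.9 CPM in PR-957. The highest PR-957 library lay well below the lowest DMSO library. The log2 fold change was -0.63 ± 0.05 (SE, edgeR adjusted p = 1.5e-08), the largest in size among the 8 genes, and equalled -0.63 both within replicates 1 and 2 and within replicates 3 and 4.

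Among 7795 other genes with an average log2 CPM of at least 4, those whose profile over the 8 libraries was most like that of NFE2L1, by the mean absolute difference of log2 CPM centred on the DMSO mean, were CALCOCO2 (0.02), RTCA (0.03) and BCKDHA (0.03). CALCOCO2 encodes an autophagy receptor, RTCA an RNA terminal phosphate cyclase and BCKDHA a subunit of the branched-chain ketoacid dehydrogenase. The same measure gave PATZ1, GFM2 and LAP3 as closest to UBB, each at 0.03. The measure includes the difference between the groups, so genes picked by it share the fold change of NFE2L1 or UBB by construction. That PATZ1, GFM2 and LAP3 were not called, as with UBB, follows largely from this choice.

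Of NFE2L2, NFE2L3 and NFE2, relatives of NFE2L1, none was called lower. Whether they differed from NFE2L1 was not tested. NFE2L2, the main factor of the oxidative stress response, was measured at 74.2 ± 1.58 CPM (SD, n = 4) in DMSO and 70.0 ± 4.53 CPM in PR-957 and was not called (log2 fold change -0.08 ± 0.06, edgeR adjusted p = 0.246). NFE2L3 was low, at 4.54 ± 0.875 and 5.11 ± 0.767 CPM, and was not called (log2 fold change 0.18, 95% interval -0.18 to 0.54, adjusted p = 0.413). NFE2, the blood-cell member of the family, rose from 33.4 ± 0.765 to 60.4 ± 8.57 CPM (log2 fold change 0.86 ± 0.08, edgeR adjusted p = 2.3e-07). The values of NFE2 in PR-957 replicates 1 and 2 (66.3 and 68.6 CPM) were above those in replicates 3 and 4 (56.1 and 50.4 CPM).

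Of the small MAF proteins with which these factors pair, MAFF fell from 4.00 ± 1.99 to 1.34 ± 0.391 CPM (log2 fold change -1.58 ± 0.31, edgeR adjusted p = 0.00065), with DMSO replicate 4 (6.95 CPM) above the other DMSO libraries (2.62 to 3.38 CPM). MAFK was lower (log2 fold change -0.17) and MAFG was not called (0.11). The repressor BACH1, which competes for the same element, was lower at -0.47. In all, 1 of the 7 tested relatives and partners was higher, 3 were lower and 3 were not called.

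**Figure D2:**
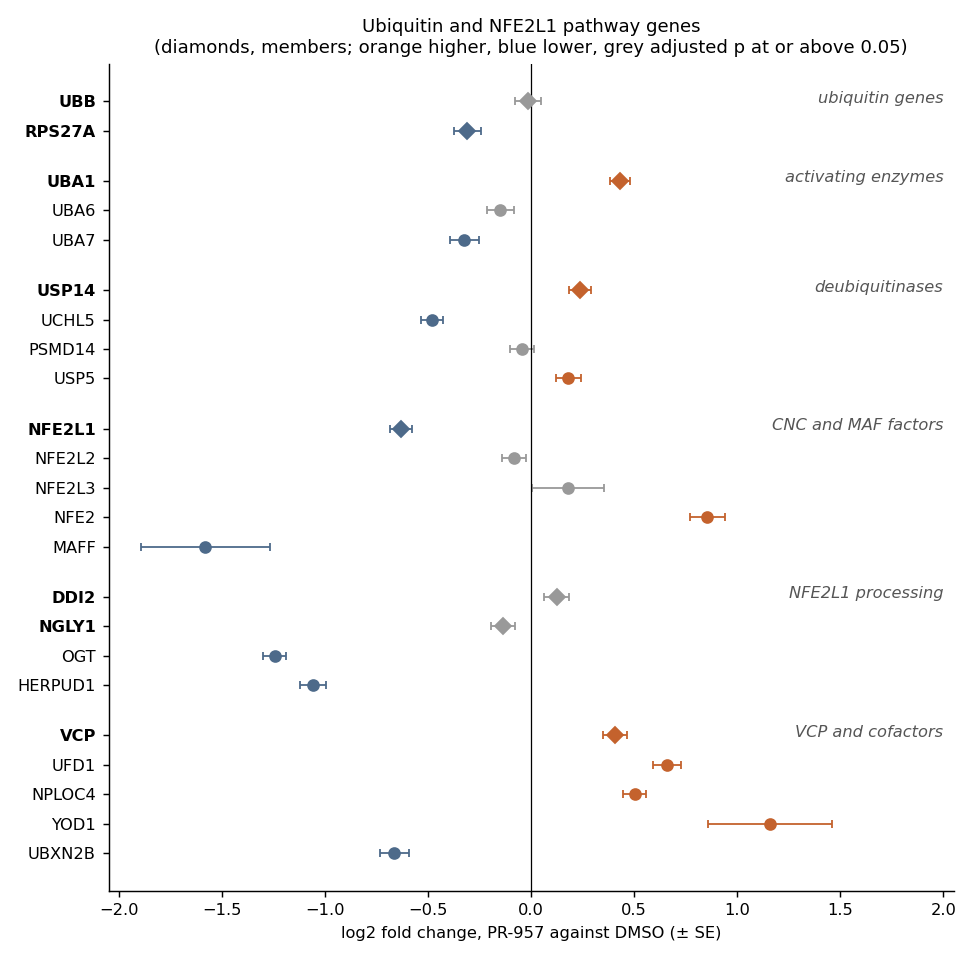
Log2 fold change of PR-957 against DMSO (horizontal axis, ± SE) for the 8 genes (diamonds) and named genes of the same pathways (circles), in orange where higher, blue where lower and grey where the adjusted p was 0.05 or above. UBA1, USP14, VCP, UFD1 and NPLOC4 lie to the right of 0, and NFE2L1, RPS27A, UCHL5, OGT and HERPUD1 to the left.

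Of the enzymes that turn NFE2L1 into its active form, the protease and the deglycosylase were not called. DDI2 (chr1:15617458-15669044, plus strand), the aspartic protease that cuts NFE2L1, was measured at 39.9, 42.5, 39.0 and 38.1 CPM in DMSO and at 41.4, 44.0, 43.9 and 44.4 CPM in PR-957. The groups overlapped through DMSO replicate 2 and PR-957 replicate 1. The log2 fold change was 0.12 ± 0.06 (SE, 95% interval -0.0055 to 0.25, edgeR adjusted p = 0.108). Its call depended on scaling: with library totals alone the log2 fold change was 0.20 and the adjusted p was 0.0147. DDI2 shares 20.6% of its exonic bases with RSC1A1 on the same strand, so reads there could not be assigned to either gene.

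NGLY1 (chr3:25718944-25790039, minus strand), the cytosolic enzyme that removes N-linked sugars from proteins extracted from the ER, was measured at 59.9, 57.0, 59.0 and 61.3 CPM in DMSO and at 51.8, 53.1, 55.3 and 55.6 CPM in PR-957. All PR-957 libraries lay below all DMSO libraries, yet the gap was small, and the log2 fold change of -0.14 ± 0.06 (SE) did not pass the threshold (edgeR adjusted p = 0.0556). It passed without DMSO replicate 2 (log2 fold change -0.16, adjusted p = 0.0488) and with replicates 1 and 2 set against 3 and 4 as a term (adjusted p = 0.0439). With library totals alone, the log2 fold change was -0.06 and the adjusted p was 0.443.

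Ahead of both enzymes, the extraction motor was higher. VCP (chr9:35056064-35072668, minus strand) was measured at 208, 196, 199 and 177 CPM in DMSO and at 264, 269, 254 and 248 CPM in PR-957. All PR-957 libraries lay above all DMSO libraries. The log2 fold change was 0.41 ± 0.06 (SE, edgeR adjusted p = 9.7e-06), a rise of 32.6%, with 0.40 within replicates 1 and 2 and 0.41 within replicates 3 and 4. Per kb, VCP was the most abundant of the 4 NFE2L1 axis genes, at 44.7 in DMSO and 59.2 CPM in PR-957, against 23.4 and 15.1 CPM for NFE2L1, 16.5 and 15.0 CPM for NGLY1 and 3.74 and 4.07 CPM for DDI2.

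The cofactors that form the ubiquitin-binding adaptor of VCP rose as well. UFD1 was measured at 37.9, 36.3, 34.4 and 31.8 CPM in DMSO and at 59.7, 54.3, 53.7 and 53.7 CPM in PR-957, a log2 fold change of 0.66 ± 0.07 (SE, edgeR adjusted p = 2.1e-07). NPLOC4, its partner, was measured at 69.0, 70.7, 69.6 and 67.5 in DMSO and 91.0, 96.7, 102 and 103 CPM in PR-957, a log2 fold change of 0.50 ± 0.06 (edgeR adjusted p = 5.9e-07). Neither gene's groups overlapped. Of all 18 VCP cofactors listed, 6 were higher, 4 lower and 8 not called, with a median log2 fold change of 0.03. Over all genes tested, 23.1% were called higher and 23.5% lower. YOD1, a deubiquitinase that works with VCP, rose from 3.78 ± 1.30 to 8.48 ± 2.92 CPM (log2 fold change 1.16 ± 0.30, adjusted p = 0.0101). NSFL1C, the adaptor for membrane fusion, was also higher (log2 fold change 0.53), whereas its relative UBXN2B fell from 51.3 ± 3.34 to 32.4 ± 2.10 CPM (log2 fold change -0.66 ± 0.07, edgeR adjusted p = 2.5e-07). FAF1, another ubiquitin-binding adaptor, was lower at -0.52.

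Genes that control the turnover of NFE2L1 at the ER and in the nucleus included decreases of more than 1 on the log2 scale, in OGT and HERPUD1. Beyond DDI2, NGLY1 and VCP, 2 of 9 were higher, 4 lower and 3 not called, with a median log2 fold change of -0.01. OGT, the enzyme that attaches O-GlcNAc to nuclear and cytosolic proteins including NFE2L1 and its partner HCFC1, was measured at 408, 446, 401 and 425 CPM in DMSO and at 166, 177, 176 and 190 CPM in PR-957. This was a log2 fold change of -1.24 ± 0.06 (SE, edgeR adjusted p = 1.9e-12). HCFC1 was higher (log2 fold change 0.32).

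In the ubiquitin ligase complex that removes proteins from the ER, HERPUD1 fell from 89.0 ± 5.37 to 42.6 ± 2.63 CPM (log2 fold change -1.06 ± 0.06, edgeR adjusted p = 1.3e-10) and SEL1L was lower as well (log2 fold change -0.76). The ligase itself, SYVN1, was not called (-0.01). Of the channel proteins, DERL2 rose (0.23) and DERL1 was not called (0.03). In the nucleus, FBXW7, a ligase subunit for NFE2L1, was lower (-0.23) and BTRC was not called (0.01).

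The proteasome subunit genes, the class of genes that NFE2L1 raises, were mostly higher. Of 31 tested, 22 were called higher, none lower and 9 not called, against 23.1% of all genes called higher and 23.5% lower. PSMB8, the target of PR-957, and the other immunoproteasome subunits were not on this list. The median log2 fold change of the 31 was 0.23. PSMB3 and PSMC4 had 0 counts in every library and were not tested. Both carry a copy of their gene model on an additional contig, so that these counts say nothing of their expression. The largest rises were in PSMD1 and PSMD2, scaffold subunits of the regulatory particle, at 0.71 ± 0.06 (SE, edgeR adjusted p = 2.0e-08) and 0.58 ± 0.06 (edgeR adjusted p = 2.3e-07). PSMD1 rose from 86.9 ± 6.89 to 142 ± 5.08 CPM, and the NFE2L1 mRNA was lower in each of the same PR-957 libraries. Transcripts give no measure of how much NFE2L1 protein was processed.

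**Figure D3:**
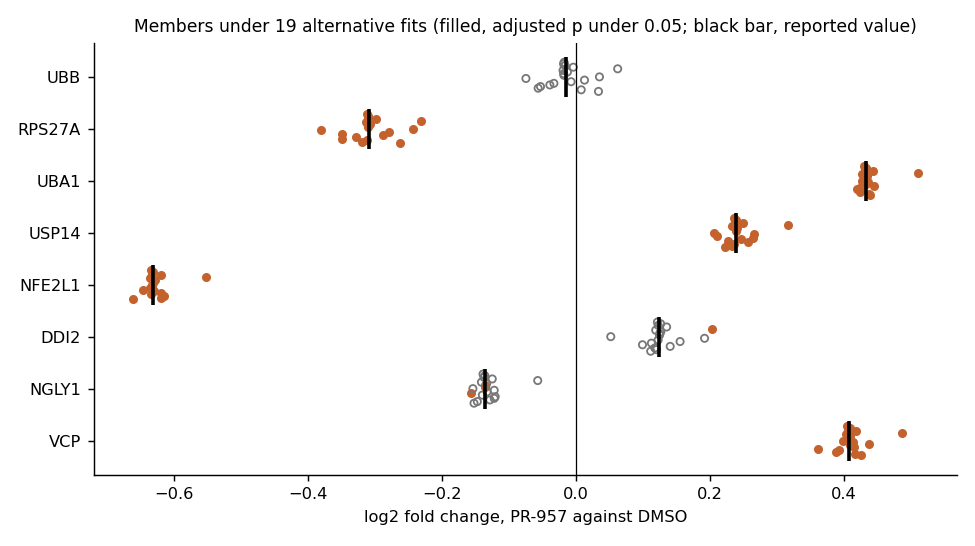
Log2 fold change of PR-957 against DMSO (horizontal axis) of the 8 genes under 19 alternative fits (points, filled where the adjusted p was under 0.05) with the reported value as a black bar. RPS27A, UBA1, USP14, NFE2L1 and VCP were called in all 19, NGLY1 in 3, DDI2 in 1 and UBB in 0.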

How the data were processed

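RNA-sequencing libraries (polyA RNA, TruSeq RNA Library Prep Kit) of MOLM-13 cells were grouped by their titles into 4 DMSO and 4 PR-957 samples. The authors' tools, per the submitters' processing notes, were Trimmomatic 0.39, STAR 2.7.10a, featureCounts 2.0.1 and DESeq2, with the hg38 build. The authors deposited unnormalised fragment counts for each gene. Per the file headers, fragments with both ends mapped were counted by strand, without multi-mapping reads. The counting command named 8 further libraries, which were not analysed here. Gene rows without values (6) were left out. A deposited table of the authors' own comparison, with fold changes and p-values, was not used.

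PR-957 was compared with DMSO by edgeR 4.0.16 (glmQLFit with robust estimation, glmQLFTest, two-sided) on all genes kept by filterByExpr, after TMM scaling, with Benjamini-Hochberg adjustment over all 13179 genes. SE were obtained from the fold change and the F statistic, and 95% intervals used the t quantile at the moderated degrees of freedom of the test. Total counts per library, 16675036 to 23111223, set the precision. No pair of replicates was a duplicate (the lowest chi-square per gene was 3.32, against about 1 for sampling noise). Ubiquitin units were counted from GENCODE v44 coding exons in the genome, since RefSeq proteins were not used here. Promoters came from RefSeq (GRCh38.p14), with all 8 genes matched.

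The 8 genes and the gene lists were chosen with earlier results of these data known. Named genes were the 8, fixed relatives (among them UBA6, UCHL5, PSMD14, USP5, NFE2L2, NFE2L3, UFD1, NPLOC4), the 2 largest changes per list among called genes with an average log2 CPM of at least 1, and the 3 closest profiles each for NFE2L1 and UBB. Some genes that this rule names are not reported here. Other genes named in the text were chosen after their values were seen. Alternatives were DESeq2 1.42.0, limma-voom (limma 3.58.1), 3 other scalings, 2 other filters, the replicate block, a term for replicates 1 and 2 against 3 and 4, each of these pairs alone, and leaving out each library.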

Additional observations from a re-analysis of the deposited data

Results flagged for a closer look

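In 5 of the 70 groups of 4 libraries examined for the named genes, 1 library stood apart from the other 3 by more than Dixon's 95% limit, where chance flags about 1 in 20 groups. None was a group of the 8 genes themselves. UBA6 was highest in DMSO replicate 2 (60.9 CPM, next 53.6 CPM). PSMD1 was lowest in DMSO replicate 4 (76.6 CPM, next 89.5 CPM). UFD1 was highest in PR-957 replicate 1 (59.7 CPM, next 54.3 CPM), and MAFF was highest in PR-957 replicate 3 (1.92 CPM, next 1.20 CPM). UBA7 was lowest in PR-957 replicate 4 (32.1 CPM, next 37.8 CPM).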

How the results depend on the processing

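RPS27A, UBA1, USP14, NFE2L1 and VCP kept their direction and stayed called in all 19 alternatives. UBB, never called, turned positive with library totals alone (0.062) and within replicates 1 and 2 (0.035), and ran from -0.057 to 0.033 on leaving out single libraries. DDI2 became called with library totals alone (0.20). NGLY1 became called with the replicate block (-0.14) and the term for replicates 1 and 2 against 3 and 4 (-0.14), and ran from -0.16 to -0.12 on leaving out single libraries. The cause was not tested. Other uncalled genes also changed sign: PSMD14 (0.035) and PATZ1 (0.030) with library totals alone, PATZ1 within replicates 1 and 2 (0.0022), GFM2 (-0.035) and LAP3 (-0.0053) within replicates 3 and 4, and, on leaving out single libraries, GFM2 (-0.028 to 0.038) and LAP3 (-0.036 to 0.058). Over the pathway lists other than the proteasome list, without the 8 genes, 34 of 59 genes were called, against 46.6% of all genes tested. Proteasome genes that are also on other lists, such as PSMD14 and ADRM1, were kept in. Under the alternatives the count of called genes in these lists ran from 28 to 40. Replicate numbers were checked as pairs: same-numbered libraries correlated at 0.0985 to 0.213. Pairing was taken as shown only if every pair passed 0.1, which 1 narrowly missed, so the numbers were not used to pair samples. As a hint from the data towards pairing, 7 of 8 libraries correlated best with their own number. The replicate block raised the calls over all genes from 6143 to 6913, and UBA6 (adjusted p = 0.0242) became called. UBA6 was also called without DMSO replicate 4 (adjusted p = 0.0396) or PR-957 replicate 2 (adjusted p = 0.0470). All 8 genes stood above 38 CPM in every library, while MAFF, NFE2L3 and YOD1, at a few CPM, had SE of 0.17 to 0.31.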
